A study of Mus musculus with 5 samples.

Results

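Interferon-responding B cells are described here as B cells that carry several transcripts of genes induced by interferon. They were chosen by measured values: a cell with at least 4 UMIs (unique molecular identifiers, each counting 1 captured RNA molecule) of Cd79a, Cd79b and Ms4a1 together, at most 1 UMI of Cd3e, Cd3d and Cd3g and at most 3 of C1qa, C1qb and C1qc was called a B cell, and a B cell with a sum of at least 3 UMIs of Isg15, Ifit1, Ifit3 and Oas2 was a member. Of 21531 cells that passed the filters, 6162 were B cells and 79 of these were members. The comparison cells were the 5367 B cells with a sum of 0, and 612 B cells had a sum of 1 and 104 a sum of 2.

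The study took live CD45+ immune cells, sorted by flow cytometry, from 3 mice at 3 sites each: a tumour, the lymph node that drains it (dLN) and a lymph node that does not (non-dLN). One mouse had received nivolumab_mIgG1_D265A and another nivolumab_mIgG1, both forms of an antibody against the human checkpoint receptor PD-1, the first with a changed Fc part, and the third MOPC21 as an isotype control. The sources used here do not give strain or age. The 9 cell suspensions carried different hashtag antibodies and were run as 1 pool, with 4 gene expression libraries and 1 hashtag library, so each antibody is represented by 1 mouse. No label ties a hashtag number to a mouse or a site, so the hashtag populations are called 1 to 9, none is assigned to a treatment or tissue, and no difference between them was tested. Intervals below are 95% intervals that cover counting error only.

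Interferons are secreted proteins that alert cells to infection. Type I interferons bind the receptor formed by Ifnar1 and Ifnar2, whose kinases set off a complex of transcription factors that binds interferon-stimulated response elements in promoters. Interferon-gamma binds Ifngr1 and Ifngr2 and acts mainly at gamma-activated sites. Both routes induce overlapping genes, among them antiviral effectors, guanylate-binding GTPases and the MHC class I machinery. In B cells, type I interferon is known to lower the threshold for activation and to support antibody responses.

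The promoters of a few of the genes on which the results turn are printed to show the response element in place. They come from RefSeq (GRCm38.p6), run from 250 bases before to 50 bases after the start of the gene on the gene's own strand, and carry in capitals each match to GAAANNGAA, the core of the response element, on either strand. Isg15 (chr4:156200769-156201068, minus strand), a ubiquitin-like protein, and Ifit3 (chr19:34583279-34583578, plus strand), of a family that binds foreign RNA, belong to the rule. Slfn5 (chr11:82951852-82952151, plus strand), a Schlafen family protein, and Ifitm3 (chr7:141010695-141010994, minus strand), which blocks virus entry, were not part of the rule. Irf7 (chr7:141266375-141266674, minus strand), the transcription factor that amplifies type I interferon, is shown as a strongly higher gene without a match.
Isg15: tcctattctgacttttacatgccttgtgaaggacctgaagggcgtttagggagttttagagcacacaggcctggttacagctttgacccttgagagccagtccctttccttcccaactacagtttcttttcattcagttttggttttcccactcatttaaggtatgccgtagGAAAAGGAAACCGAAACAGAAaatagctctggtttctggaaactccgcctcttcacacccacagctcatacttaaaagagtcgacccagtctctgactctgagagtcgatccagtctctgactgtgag
Ifit3: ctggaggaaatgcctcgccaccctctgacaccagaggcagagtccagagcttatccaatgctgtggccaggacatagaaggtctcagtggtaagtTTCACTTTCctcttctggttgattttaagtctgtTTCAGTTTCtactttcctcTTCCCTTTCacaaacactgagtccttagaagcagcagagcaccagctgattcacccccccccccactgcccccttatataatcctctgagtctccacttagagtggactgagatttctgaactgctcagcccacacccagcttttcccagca
Slfn5: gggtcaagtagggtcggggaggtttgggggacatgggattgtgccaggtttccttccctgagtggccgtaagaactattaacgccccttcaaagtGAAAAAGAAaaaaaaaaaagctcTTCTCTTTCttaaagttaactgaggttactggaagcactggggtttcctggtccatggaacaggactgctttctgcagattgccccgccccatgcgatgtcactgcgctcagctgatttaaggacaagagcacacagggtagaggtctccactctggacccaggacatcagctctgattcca
Ifitm3: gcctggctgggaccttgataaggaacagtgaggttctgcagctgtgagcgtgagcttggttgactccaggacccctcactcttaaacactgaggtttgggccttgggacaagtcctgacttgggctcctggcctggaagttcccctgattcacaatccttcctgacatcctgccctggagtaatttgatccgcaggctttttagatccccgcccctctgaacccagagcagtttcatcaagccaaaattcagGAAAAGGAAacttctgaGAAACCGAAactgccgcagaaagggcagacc
Irf7: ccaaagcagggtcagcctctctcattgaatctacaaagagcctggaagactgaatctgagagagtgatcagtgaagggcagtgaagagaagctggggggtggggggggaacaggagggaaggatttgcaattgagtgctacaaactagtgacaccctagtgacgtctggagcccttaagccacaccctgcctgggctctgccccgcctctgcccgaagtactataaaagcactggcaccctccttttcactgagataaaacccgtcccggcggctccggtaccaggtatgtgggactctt

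The Isg15 window held 3 overlapping matches, 78, 72 and 66 bases before the start. The Ifit3 window held 3 separate matches, all on the opposite strand, and the Slfn5 and Ifitm3 windows held 2 each. Over all 27025 genes with a window, 9.76% held at least 1 match. Among the 51 interferon-induced genes that were higher in members (below), 42 had a window and 18 of them held a match, which is 42.9%. For the GTPases linked to interferon-gamma it was 9 of 10 genes, and for genes of the B cell receptor and of follicular B cells 0 of 18. Genes of the same interferon lists that were measured and not higher held one in 2 of 6 cases, too few to set apart from the higher genes. The gamma-activated site TTCNNNGAA was matched in 9.55% of all genes, in 8 of those 42 genes (19.0%), in 3 of the 6 that were not higher and in 6 of the 10 GTPases. These matches describe letters in a window and do not show binding.

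Members were unevenly spread over the populations. Population 9 held 44 of the 79 members, which is 55.7% of them, but 15.2% of the B cells. The share of B cells that were members was 4.70% (interval 3.43 to 6.25) in population 9, 1.21% (0.645 to 2.06) in population 2 and 1.04% (0.383 to 2.25) in population 3. It was 0.697% (0.319 to 1.32) in population 8, 0.282% (0.0770 to 0.721) in population 5 and 0.129% (0.00325 to 0.714) in population 6. The interval of population 9 lay above those of the other 5, which all overlapped one another. Populations 1, 4 and 7 held 7, 13 and 9 B cells, too few to give a share.

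Depth was alike in these B cells: the median total per cell ran from 2948 to 3185 UMIs over the 6 populations with at least 500 B cells. With every cell thinned to 1500 UMIs, population 9 still had the highest share, at 1.66% (0.934 to 2.73) from 15 cells, against 0 to 0.390% in the other 5. Its interval then overlapped those of populations 2 (0.106 to 0.995) and 3 (0.0438 to 1.30). Thinning left out 35 shallower B cells of population 9 and 24 to 59 of each of the other 5. The share of thinned B cells with any UMI of the 4 genes was 13.0% in population 9, 8.19% in population 2, 6.33% in population 3, 5.87% in population 8, 4.55% in population 6 and 4.05% in population 5. Population 9 was also highest among the 6 with thresholds of 2 and 5 UMIs, without Isg15 and with cells of other markers left out. At 5 UMIs its interval (1.06 to 2.89) overlapped that of population 3 (0.042 to 1.25). With doublets and all cells of other markers left out, it held 4 members (interval 0.537 to 4.94%) and population 2 held 2 (0.098 to 2.88%), so these intervals overlapped too.

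**Figure D1:**
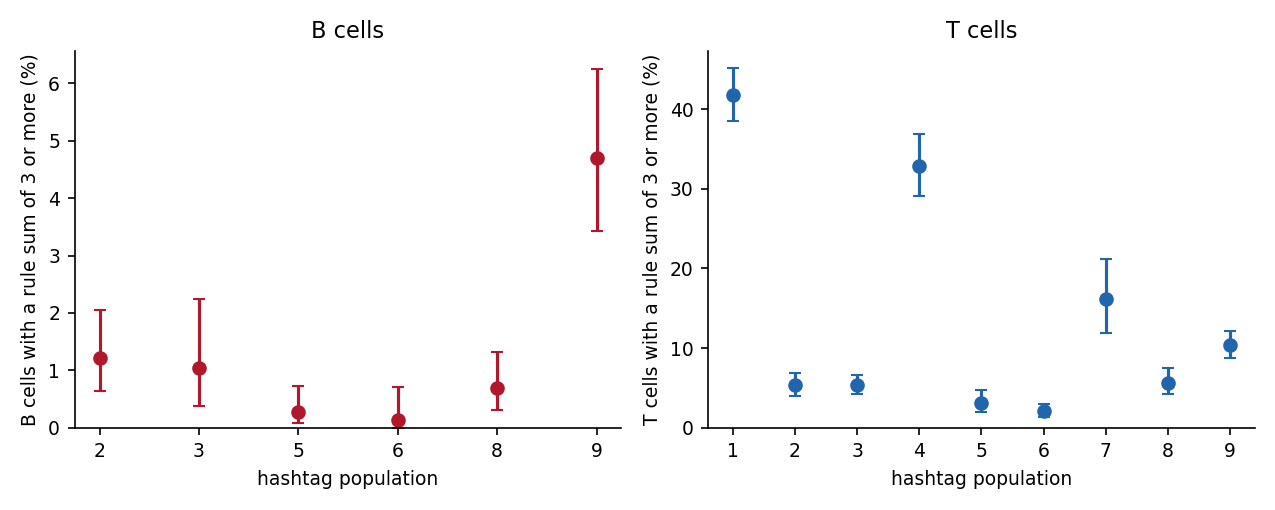
Share of cells with a sum of at least 3 UMIs of Isg15, Ifit1, Ifit3 and Oas2 by hashtag population, in percent, for B cells (left, the 6 populations with at least 500 B cells) and T cells (right, all 9). Points are shares and bars exact 95% intervals; population 9 reaches 4.70% of B cells, and populations 1, 4 and 7 have the highest shares of T cells.

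A T cell held at least 2 UMIs of Cd3e, Cd3d and Cd3g, at most 1 of Cd79a, Cd79b and Ms4a1 and at most 3 of the C1q genes. Among these 6 populations the share of T cells with a sum of at least 3 was also highest in population 9 and lowest in population 6. Of 8368 T cells, 11.6% had a sum of at least 3. The share was 10.4% in population 9, 5.68% in population 8, 5.33% in population 2, 5.32% in population 3, 3.14% in population 5 and 2.10% in population 6. Higher still were populations 1 (41.8%), 4 (32.9%) and 7 (16.2%), which held few B cells. T cells were deeper, with medians of 4190 to 6669 UMIs; thinned to 1500 UMIs their shares were 2.82% in population 9, 0.239 to 1.38% in the other 5, and 22.3%, 12.5% and 6.62% in populations 1, 4 and 7.

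Some members carried RNA of other cells. Of the 79, 5 held between 15 and 113 UMIs of monocyte and macrophage genes such as Lyz2, Csf1r, Fcgr1, Adgre1 and Cd14, 1 each in populations 1, 3, 5, 7 and 8. One more, in population 8, held 13 UMIs of plasmacytoid dendritic cell markers, 11 of them Siglech. No B cell with a sum of 0 reached 15 monocyte UMIs. The other 73 members held at most 2 monocyte UMIs and 0 of the plasmacytoid markers, and all 44 members of population 9 were among them. In population 9 the full monocyte and macrophage list, which contains Apoe and Ctss, summed to 1059 CPM (counts of a gene per 1000000 UMIs of the class) in members and 928 in sum-0 cells, with Adgre1 at 0 in members. The T cell markers summed to 106 against 90.7 CPM, with Cd4 at 0 in members. Scrublet, a doublet caller run with an expected doublet rate of 8%, marked 184 of all 21531 cells. It marked none of the members, not even the 6 with RNA of other cells, so this 0 does not show that members are single cells.

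In depth and RNA quality members were close to the other B cells, and further B cell markers took a somewhat smaller share of their UMIs. Their median gate sum was 18 UMIs, as in the sum-0 cells, and in population 9 the median was 3228 UMIs per member against 2944. Mitochondrial transcripts took a median 1.91% of a member's UMIs and 1.93% of a sum-0 cell's there. Among the B cell markers, Pax5, Ebf1 and Bank1 were detected in 18, 36 and 39 of the 44 members of population 9. The marker list summed to 4049 CPM (3744 to 4373) in these members and 4551 (4464 to 4640) in the sum-0 cells, with all 6 markers in the table above 0. Per cell the list had a median of 14 UMIs in these members and 13 in the sum-0 cells. The members thus carried the markers of B cells, at a lower CPM but not at a lower median count per cell.

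By construction the 4 rule genes were absent from sum-0 cells, and their values are given as a description. Isg15 was detected in 64 members, Ifit3 in 56, Oas2, which makes the second messenger that switches on RNase L, in 34, and Ifit1 in 25. Of the 79 members, 14 carried a single one of the genes, 37 carried 2, 21 carried 3 and 7 all 4. The threshold is close to the bulk of the members: 35 had a sum of exactly 3, 28 a sum of at least 5 and 5 a sum of at least 10, with a median of 4 and a highest value of 25. In members of population 9, Isg15 stood at 573 CPM, Ifit3 at 461, Oas2 at 206 and Ifit1 at 125.

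Genes outside the rule were compared in population 9, the population that held at least 20 members and 20 sum-0 cells (44 and 736 cells). A gene was measured with at least 50 UMIs over both classes, and was called higher with a CPM ratio of 2 or more and lower with 0.5 or less, if 1 lay outside the interval of the ratio. Because the rule used the same cells, these ratios describe the members and test nothing. Of 5964 measured genes, 232 were higher (3.89%) and 116 lower (1.95%). The same comparison in populations 2, 3, 5, 6 and 8, with 29 members free of the monocyte and plasmacytoid RNA and 4557 sum-0 cells, used other cells; there, 454 of 9821 genes were higher (4.62%) and 97 lower (0.988%). This second set was put together after the data were seen. Its member UMIs were 99509, so single genes often rest on a few UMIs.

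Interferon-induced genes were higher as a body. Of 79 such genes in 4 lists (antiviral effectors, regulators, the Schlafen and p200 families, and other induced genes), 59 were measured and 51 were higher, which is 86.4% against 3.89% of all measured genes. Their median log2 ratio was 1.87, against -0.05 over all measured genes. Since the minimum could be reached through the members alone, the same count was made over genes with at least 50 UMIs in sum-0 cells: 45 of 53 list genes were higher, against 3.47% of 5762 genes. In the second set all 51 had ratios above 1 and 45 were higher, against 4.62% of all genes measured there. The number of the 51 called higher was 48 when the plasmacytoid cell was kept (30 members) and 47 with no cell left out (33 members).

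**Figure D2:**
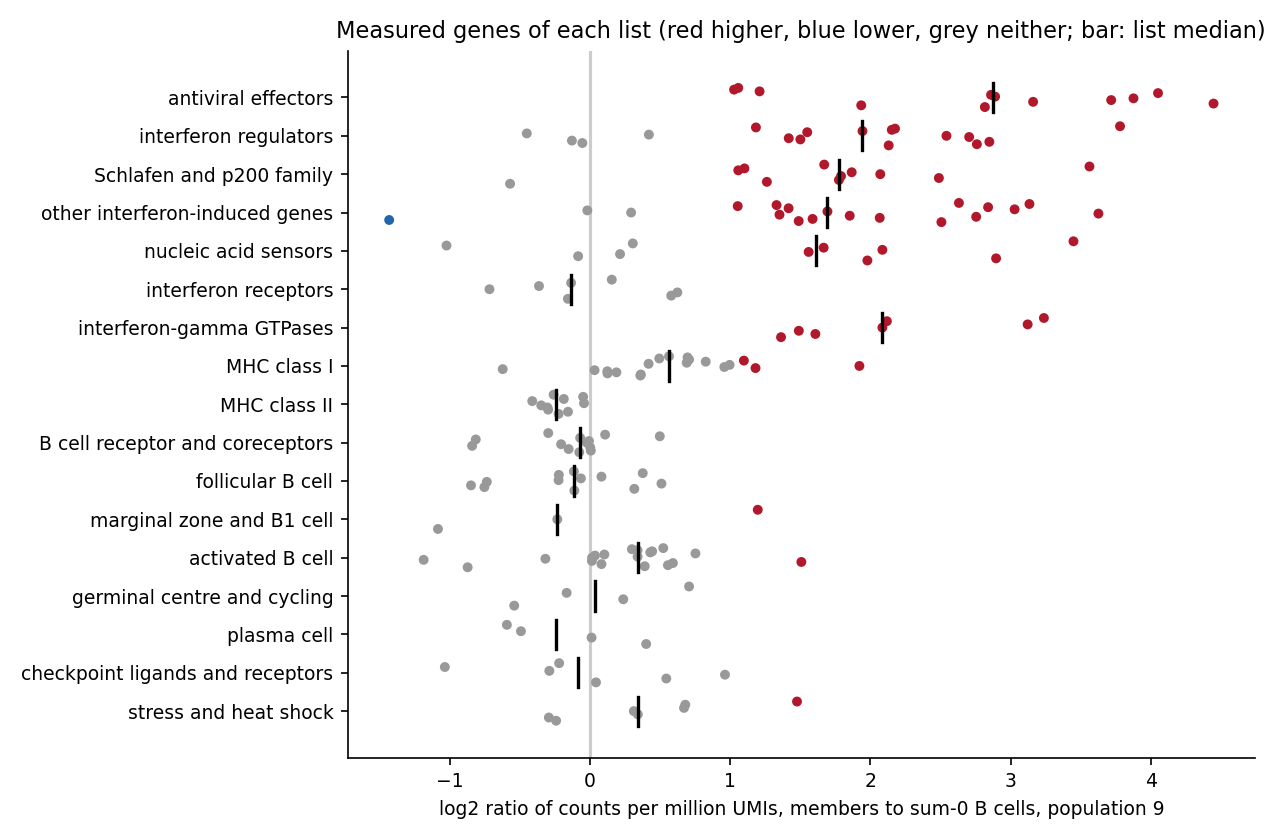
log2 ratio of CPM, members to sum-0 B cells of population 9, for the measured genes of each list. Each point is a gene, red where higher, blue where lower and grey where neither, and the bar is the list median; antiviral effectors (median 2.88) lie to the right and MHC class II genes (median -0.24) to the left of 0.

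Among antiviral effectors 12 of 12 measured genes were higher, and the median log2 ratio was 2.88. Some of these, Ifit2, Oasl2 and Mx1 among them, reached the minimum only through the members, and with at least 50 UMIs in sum-0 cells it was 9 of 9 with a median of 2.82. Ifit2, which restrains translation of viral RNA, stood at 336 CPM in members and 15.4 in sum-0 cells of population 9, a log2 ratio of 4.45 (interval 3.84 to 5.06). It was found in 28 of the 44 members. The oligoadenylate synthetase-like gene Oasl2 had a ratio of 4.05, the dynamin-like GTPase Mx1 3.88 and the exonuclease Isg20 3.72. Their ratios in the second set were 5.07 for Ifit2, 4.12 for Oasl2, 4.21 for Mx1 and 3.71 for Isg20. The smallest ratio in the list was that of the ubiquitin ligase Trim25, at 1.03.

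Of 17 measured regulators, 13 were higher, and 11 of 15 with at least 50 UMIs in sum-0 cells. Usp18, which removes Isg15 from proteins and damps receptor signalling, had a log2 ratio of 3.78 (212 against 15.4 CPM). With 34 UMIs in members and 35 in sum-0 cells, Usp18 reached the minimum only through the members. Irf7 stood at 1047 CPM in members and 145 in sum-0 cells, a ratio of 2.85 (2.58 to 3.12), and 39 of 44 members carried it. Herc6, the mouse ligase for Isg15, and the ADP-ribosyltransferase Parp14 followed with 2.76 and 2.71. Stat2 and Irf9, transcription factors of the type I response, were higher at 1.94 and 1.50. The related transcription factors Irf1 (-0.05) and Irf8 (-0.13) were not.

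Slfn5 was the leading gene of the Schlafen and p200 families, of which 10 of 11 measured members were higher. It stood at 411 CPM in members and 34.8 in sum-0 cells, a log2 ratio of 3.56 (3.09 to 4.03), and was present in 30 of 44 members. In the second set its ratio was 4.30. The p200 genes Ifi208, Ifi213 and Ifi214, of the family that holds DNA sensors, had ratios of 2.49, 2.07 and 1.87. Aim2, the inflammasome DNA sensor of that family, was not higher, at -0.57 with an interval of -1.52 to 0.38. Genes of these families and of the Oas, Ifit and Tgtp groups have close relatives whose reads can be shared.

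Among the other induced genes, 16 of 19 measured were higher and 1 was lower. Tor3a had a log2 ratio of 3.14, Phf11b 3.03 and Rtp4, a chaperone of receptors, 2.84. Ly6c2, a surface protein of monocytes and memory T cells, had a ratio of 3.63, but its 62 UMIs came from 11 members with 22 in 1 cell, and the second set gave 0.94. Ifi27 was lower at -1.43 in population 9 and stood at -0.10 in the second set. Ifi27l2a, which had the most UMIs among the induced genes called higher, stood at 895 CPM in sum-0 cells and 2691 in members.

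Sensors of foreign nucleic acid were in part higher, 6 of 10 measured. With at least 50 UMIs in sum-0 cells it was 3 of 7, and the median log2 ratio went from 1.61 to 0.31. Zbp1, a sensor of Z-form nucleic acid that can trigger cell death, had a log2 ratio of 3.45 (442 against 40.5 CPM). The RNA helicases Dhx58 and Ddx58 had ratios of 2.90 and 1.98, and the endosomal RNA receptor Tlr7 2.09. In the second set Zbp1, Dhx58, Tlr7 and Ddx58 stood at 3.05, 1.63, 2.11 and 1.67. The DNA receptor Tlr9 and the adaptor Myd88 were higher in population 9 (1.67 and 1.56) but not in the second set (-0.79 and 0.09). Dhx58, Tlr9 and Myd88 reached the minimum in population 9 only through the members.

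The receptors and their kinases did not stand apart, with 0 of 7 measured higher or lower in population 9. Ifnar1 had a log2 ratio of -0.16 and Ifnar2 of 0.58, with intervals of -1.11 to 0.80 and -0.18 to 1.34. Ifngr1 stood at 0.62 (-0.01 to 1.25) in population 9. In the second set Ifngr1 was called lower, at -1.71 (-3.27 to -0.15), from 3 UMIs in 2 members. None of the 10 interferon genes looked for was measured in population 9. Ifng was measured in the second set, with 0 UMIs in members and 69 in sum-0 cells. Members held 99509 UMIs in all there, against 16265801, so this 0 does not set them apart. In population 9 the members held 0 UMIs of each of the 10 genes, of a class total of 160534. Its sum-0 cells held 8 of Ifng and none of the type I and type III genes.

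For GTPases linked to interferon-gamma, which attack the vacuoles of intracellular pathogens, 7 of 7 measured were higher and the median log2 ratio was 2.09. Of these, 3 reached the minimum only through the members, and with at least 50 UMIs in sum-0 cells it was 4 of 4 with a median of 1.86. Tgtp2 had 3.24, Ifi47 3.12, Irgm1 2.12 and Gvin1 2.09, and Tgtp2 and Gvin1 were among those 3, with 39 and 40 UMIs in sum-0 cells. Their ratios in the second set were 2.48, 3.01, 2.40 and 1.28. Gvin1, with 4 UMIs in members there, was not called higher. Gbp2, which interferon-gamma induces strongly in many cells, was not measured, with 1 UMI in members and 48 in sum-0 cells of population 9. The list has 18 genes, 17 of them in the table, so most were below the minimum.

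MHC class I genes shifted less. Of 19 measured, 18 had a ratio above 1 and 3 were higher; the median log2 ratio was 0.56. H2-T24 (1.92) and H2-T22 (1.18), non-classical class I genes, and Psme2 (1.10), a part of the proteasome activator, were the 3. The classical genes H2-K1 and H2-D1 stood at 0.19 and 0.13, and B2m, their common light chain, at 0.36. In the second set 6 of 20 were higher, H2-T24, Psme2, Tap1, Tapbp, Psme1 and Psmb10, and H2-T22 was not, at 0.65. MHC class II genes had ratios below 1 in all 10 cases in population 9, with a median of -0.24, and 0 were lower by the rule used. In the second set 4 of the 10 were above 1.

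Genes of B cell identity gave no calls, though several had ratios below 1. In population 9, 0 of 13 measured genes of the B cell receptor and its coreceptors were higher or lower, and 0 of 12 follicular genes. Cd22, an inhibitory coreceptor, had -0.84 and the tetraspanin Cd81 -0.81, but the second set gave -0.09 and 0.11. The complement receptor Cr2 had a log2 ratio of -0.85 in population 9 (118 against 213 CPM). In the second set Cr2 stood at -0.85 from 9 UMIs, with an interval of -1.78 to 0.08 that holds 0. The low-affinity IgE receptor Fcer2a stood at -0.74 in population 9 and -0.60 in the second set. In population 9, 15 of the 61 UMIs of Fcer2a in members came from 1 cell. The chemokine receptor Cxcr5 stood at 0.51. Of the marginal zone and B1 cell genes, 3 were measured and Plac8 was higher, at 1.20. The heavy and light chain constant genes were not analysed here.

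Activation, germinal centre and plasma cell genes gave few calls in population 9. In the activation list 1 of 19 measured was higher, the immediate early gene Egr1, at 1.51. Its 40 UMIs came from 5 members, 19 of them from 1 cell, and the second set held 1 UMI in members and gave -3.56, where Egr1 was lower. Myc stood at 0.75, Cd86, a costimulatory ligand, at 0.59 and Cd69, a retention and early activation marker, at 0.56. None of 4 measured germinal centre and cycling genes and none of 4 plasma cell genes passed the rule in population 9. For the second set, 14 germinal centre and cycling genes were measured, 0 had a ratio above 1 and 2 were lower: Top2a, a topoisomerase of dividing cells, at -2.63 from 1 UMI, and Mki67 with 0 UMIs in members. Members held 99509 UMIs there against 16265801 in sum-0 cells. A gene near the minimum is thus likely to have 0 UMIs in members, and the count of ratios above 1 says little. Bcl6 and Pcna, with 7 and 6 UMIs, stood at -0.02 and -0.38, and Mcm5, with 1 UMI, at -2.48 in the second set. Of 7 plasma cell genes 1 was lower there, Jchain, which joins antibody units, with 0 UMIs in members. The activation gene Irf4 was also lower, at -1.11. Of 7 measured stress genes Hsph1 was higher (1.48, from 12 UMIs) and stood at -0.01 in the second set.

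Checkpoint ligands and receptors gave 0 calls of 6 measured. Cd274, the gene of the PD-1 ligand PD-L1, stood at 218 CPM in members and 112 in sum-0 cells of population 9, a log2 ratio of 0.96 with an interval of 0.46 to 1.47, and at 0.29 in the second set. Pdcd1lg2, the gene of the other PD-1 ligand, stood at -1.03 from 3 UMIs in population 9 and was higher in the second set, at 1.09 from 8 UMIs. Pdcd1 itself had 0 UMIs in members of population 9 and 4 in the sum-0 cells.

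Outside all lists, 162 genes were higher and 115 lower in population 9. The 10 highest were Tmem184b (3.10), Lrrc16a (2.97), Sidt1 (2.50), Rnf213 (2.37), Trim30b (2.22), Ccnd2 (2.12), Grn (2.12), Gm4070 (2.11), Slc25a22 (2.03) and Setdb2 (2.02). Of these 10, 7 had at least 50 UMIs in sum-0 cells, and Tmem184b, Lrrc16a and Slc25a22 reached the minimum only through the members. The 22 UMIs of Sidt1 came from 8 members with 11 in 1 cell, the 20 of Ccnd2 from 8 members with 9 in 1 cell, and 11 of the 31 of Grn from 1 cell. All 10 had a ratio above 1 in the second set, and 9 were higher there, Grn being the exception at 0.47. Rnf213 is a large ubiquitin ligase with antimicrobial activity, Ccnd2 a cyclin of the early cell cycle and Setdb2 a histone methyltransferase. Over the 162 genes, 120 had a ratio above 1 in the second set and 52 were higher. Of all 9821 genes measured there 4.62% were higher, and their median log2 ratio was -0.17.

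Lower genes rested on few molecules. None had more than 19 UMIs in members, and 19 had 0. The 10 lowest all had 0, and among ties the genes with most UMIs in sum-0 cells were taken, an order set after the values were seen. They were S100a6, Cul5, Ebp, Alkbh3, Map3k7, Eif4ebp1, Rnf40, Ccdc71l, Smim15 and Ankra2, with 63 to 119 UMIs in sum-0 cells. With 3 counts in place of 0, the ratio was 0.357 for S100a6, a calcium-binding protein, 0.397 for Cul5, a ubiquitin ligase scaffold, and 0.472 for Ebp. For the rest of the 10 it ran from 0.551 for Alkbh3 to 0.674 for Ankra2, above 0.5, so a 2-fold drop is not shown for them. The upper ends of the 95% intervals of the ratios ran from 0.457 for S100a6 to 0.863 for Ankra2, with Cul5 at 0.508. None of the 10 was lower in the second set, and of the 115 genes 4 were, against 0.988% of all 9821 genes measured there.

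**Figure D3:**
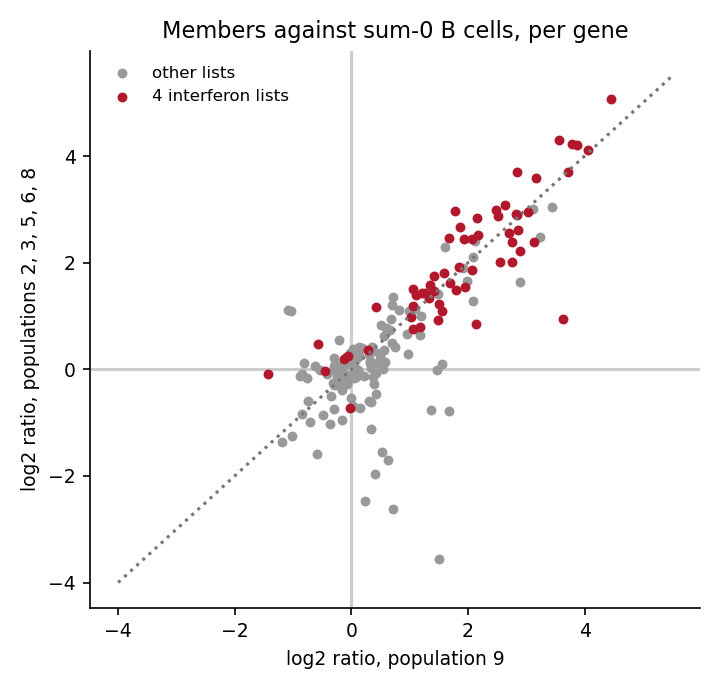
log2 ratio of members to sum-0 B cells for each list gene, in population 9 (x axis) and in populations 2, 3, 5, 6 and 8 (y axis), which share no cells; the dotted line marks equal values. Most genes of the 4 interferon lists (red) lie in the upper right, Ly6c2 (3.63 and 0.94) below the line, and Egr1 (1.51 and -3.56) is the lowest point; genes with 0 UMIs in either set of members are not drawn.

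The level of the other interferon-induced genes went with the sum of the rule genes. In population 9 the 4 lists together stood at 9505 CPM in cells with a sum of 0, 12680 with a sum of 1, 16680 with 2, 23530 with 3, 24220 with 4 to 5 and 34400 with 6 or more. In the other 5 populations, without the cells of other markers, cells with sums of 0, 1, 2 and 3 stood at 7583, 8516, 10200 and 18490 CPM. Cells with a sum of 2, just outside the rule, were thus between the sum-0 cells and those with a sum of 3 in both. Irf7 in population 9 stood at 145, 300.1, 429, 845, 899 and 1554 CPM over the same 6 steps. Within members the climb was not general. In the other 5 populations Irf7 stood at 952.9, 673.8 and 855.5 CPM with sums of 3, 4 to 5 and 6 or more. Slfn5 in population 9 stood at 237.5, 662.2 and 470.9 CPM over these steps.

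**Figure D4:**
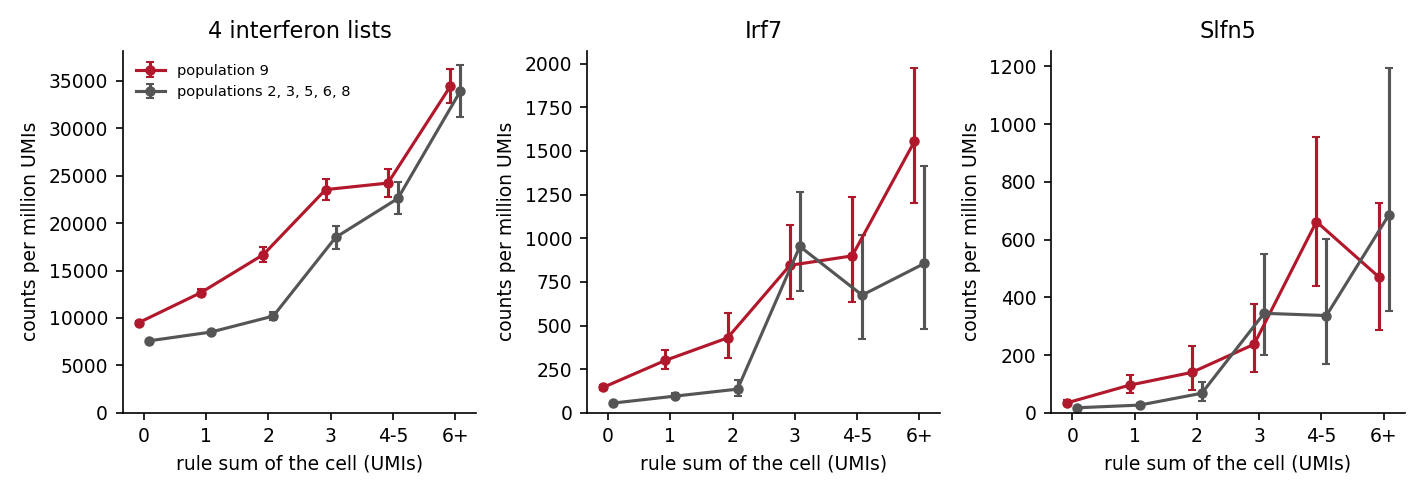
CPM of the 4 interferon lists, of Irf7 and of Slfn5 in B cells grouped by their sum of Isg15, Ifit1, Ifit3 and Oas2, in population 9 (red) and in populations 2, 3, 5, 6 and 8 (grey). Points are pooled over the cells of a step and bars are 95% Poisson intervals; the 4 lists climb from 9505 to 34400 CPM in population 9.

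Cell by cell, most members of population 9 stood clear of the sum-0 cells. Per 10000 UMIs of the cell, the 4 lists took 47.9 in the lowest member, 279 in the median and 533 in the highest, against a median of 87.5 and a 95th percentile of 173 in sum-0 cells. Of 44 members, 40 lay above that percentile and 43 above the median. In the other populations 24 of 29 members lay above the 95th percentile of their sum-0 cells (135). The other 4 members of population 9 and 5 of the other populations lay within the range of most sum-0 cells.

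**Figure D5:**
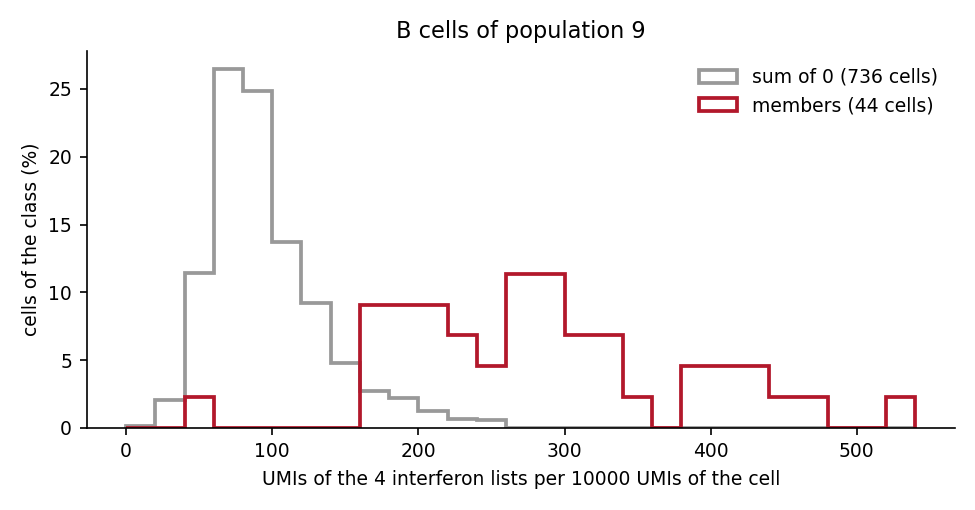
Distribution over B cells of population 9 of the UMIs of the 4 interferon lists per 10000 UMIs of the cell, for 44 members (red) and 736 cells with a sum of 0 (grey), in percent of the class. The members' median is 279 and that of the sum-0 cells 87.5.

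Sum-0 B cells also differed between populations, with population 9 highest. The 4 lists stood at 9505 CPM (9379 to 9633) in sum-0 cells of population 9, 8455 in population 3, 8281 in population 2, 8006 in population 6, 7361 in population 8 and 6910 in population 5. Irf7 stood at 145 CPM in population 9, 73.9 in population 2, 70.3 in population 3, 57.5 in population 8, 47.8 in population 6 and 42.5 in population 5. The intervals of population 9 did not overlap the others for either. The GTPases linked to interferon-gamma stood at 321 CPM in population 9 and at 317 and 319 in populations 2 and 6, with overlapping intervals, and at 261 to 274 in the other 3. Over all B cells they stood at 421 CPM (398 to 446) in population 9, 360 (341 to 380) in population 2 and 319 (297 to 343) in population 6, and there the interval of population 9 overlapped neither.

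In the other populations these levels rest on few member cells. Among members without cells of other markers, Slfn5 stood at 411 CPM (318 to 523) in population 9, 550 (349 to 825) in population 2 from 13 cells and 153 (49.7 to 357) in population 8 from 7 cells. It stood at 699 CPM in population 3 from 5 cells and 341 in population 5 from 3 cells, and the 1 member of population 6 had none. Irf7 stood at 1047 CPM in population 9, 1220 in population 2, 1165 in population 3, 454 in population 5, 428 in population 8 and 0 in population 6. Population 8 was below population 9 for Irf7 with intervals that did not overlap (234 to 719 against 894 to 1217), and their Slfn5 intervals overlapped.

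T cells of population 9 with a sum of at least 3 were compared with sum-0 T cells in the same way (139 and 857 cells). Of 7412 measured genes, 1.97% were higher. For antiviral effectors 12 of 18 were higher and the median log2 ratio was 1.77, against 2.88 over the 12 genes measured in B cells. Of the GTPases 6 of 17 were higher, with a median of 0.85, against 2.09 over the 7 measured in B cells. These medians thus cover unlike sets of genes. Slfn5 stood at 1.97 in T cells and 3.56 in B cells, and Ifitm3 at 0.51 and 3.16. Ly6c2 was already at 398 CPM in sum-0 T cells, against 31.3 in sum-0 B cells. The T cells of population 9 were deeper (a median of 4360 UMIs against 2974 in B cells), and the part of depth in these differences was not tested.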

How the data were processed

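UMI counts per gene and cell were deposited by the authors as 1 matrix, and the file header and the submitters' processing notes name Cell Ranger 8.0.1 and mm10. Cells with at least 200 genes and at most 20% mitochondrial counts were kept (93 of 21624 barcodes failed). Barcodes had 1 suffix and none occurred more than once. A cell took the hashtag whose count was at least 3 times the next; 57 B cells had none. Members and gene lists were chosen with earlier results of these data known. Ratios of CPM with 95% score intervals, exact Clopper-Pearson intervals for shares and Poisson intervals for levels were computed with numpy 2.4.6 and scipy 1.17.1. The ratio was tried on simulated Poisson counts pooled per class. These leave out variation between cells, so they do not cover genes whose UMIs come largely from 1 cell. Doublets were called with Scrublet in scanpy 1.11.5. Named genes were the rule genes and markers, the 4 genes of each list with the largest ratio, and the 10 highest and 10 lowest outside the lists; other list genes named were picked for their role after their values were seen. Cells with at least 15 monocyte or 5 plasmacytoid dendritic cell UMIs were left out of the second set of populations, a choice made after seeing the data. Alternatives covered depth, thresholds, matching, minimum UMIs, denominator and cells left out. With 1 mouse per antibody and unassigned hashtags, no test between groups was made. Values of some list genes are not reported here.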

Additional observations from a re-analysis of the deposited data

How the results depend on the processing

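Population 9 alone held 20 members, so pooling, geometric means and leaving out populations gave no other ratio. Genes higher numbered 232 of 5964 measured in the main comparison and 114 of 3016 with sum-0 cells matched on total UMIs. Without doublets and cells with other markers they numbered 49 of 1344. With a minimum of 20 UMIs it was 374 of 8192, and with no minimum 708 of 13165. In populations chosen after seeing the data genes higher numbered 454 of 9821 (2, 3, 5, 6 and 8) and 475 of 9822 with the plasmacytoid cell kept. They numbered 535 of 9826 with no cell left out and 429 of 10040 in all 6. Genes lower numbered 116 of 5964, 64 of 3016 with matching and 13 of 1344 without doublets and marked cells. In that last setting, with fewer genes measured, list genes higher fell from 70 to 16. That setting keeps 4 members and 167 sum-0 cells, since its markers include Ctss, Apoe and Lck, which B cells carry. The share of members among B cells was 1.28%, and 0.407% thinned, 2.97% at a threshold of 2, 0.454% at 5 and 0.433% without doublets and marked cells; leaving out each population gave 0.670 to 1.58%, the lowest without population 9. The T cell share was 11.6%, and 4.40% thinned. For named genes called higher or lower in population 9, 479 ratios were recomputed and 23 changed sign, all in the added sets. Of 45 named genes called in neither direction, 13 had the opposite sign in populations 2, 3, 5, 6 and 8. In populations 2, 3, 5, 6 and 8, with the cells of other markers left out, with the plasmacytoid cell kept and with no cell left out, the log2 ratio was -3.56, -3.65 and -0.64 for Egr1, -0.0095, -0.10 and -0.28 for Hsph1, 0.63, 0.55 and 0.87 for Ebp, 0.27, 0.20 and 0.041 for Alkbh3, 0.73, 0.64 and 0.47 for Ccdc71l and 1.17, 1.09 and 1.20 for Smim15. S100a6 gave 0.17 and 1.62, and Rnf40 0.18 and 0.029, in the last 2 of these sets, and S100a6 0.23 in all 6 populations. The cause was not tested. No paired analysis was possible because the labels give no groups.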

Other observations

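Several interferon-induced genes fell below the minimum of 50 UMIs and are given by their UMIs in population 9, chosen after their values were seen. Ifit3b, a close copy of Ifit3, had 30 UMIs in the 44 members and 8 in the 736 sum-0 cells. Rsad2, the gene of viperin, had 24 and 13, Oas3 24 and 15, Cmpk2 15 and 22 and Ifih1, a sensor of long double-stranded RNA, 15 and 23. The members' UMIs in all were 160534 and those of the sum-0 cells 2271372. The chemokine gene Cxcl10, often used as a mark of the interferon response, had 0 UMIs in the members and 30 in the sum-0 cells. Given these UMI totals, the 0 of Cxcl10 does not set the members apart.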
